A study of Mus musculus with 40 samples.

Results

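The Ikaros family comprises 5 zinc finger transcription factor genes of the mouse, Ikzf1 (Ikaros), Ikzf2 (Helios), Ikzf3 (Aiolos), Ikzf4 (Eos) and Ikzf5 (Pegasus). They were chosen by identifier, as the 5 rows among 49585 gene rows whose Ensembl mouse identifiers map to these symbols, and no measured value entered the choice. Ikaros family proteins bind DNA through an amino-terminal group of zinc fingers and pair with one another through a carboxy-terminal group. Ikaros is required for the development of lymphocytes and can recruit NuRD, the complex that moves nucleosomes and removes acetyl groups from histones and that has Mbd3 as a subunit. Helios and Eos are best known in regulatory T cells, Aiolos in maturing lymphocytes, and Pegasus is the most divergent member.

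RNA was measured in 40 libraries from the bone marrow of 10 mice of strain C57BL6/129Ola, aged 46 to 51 days. The 5 control mice had the genotype Mbd3_Flox/Flox, alleles flanked by recombination sites, and the 5 Mbd3del mice had the genotype Mbd3_Del/Del. The sources used here name neither the promoter of the recombinase nor the deleted exons. Each mouse gave 1 pool of 100 or 150 cells of each of 4 sorted populations, so that each population and genotype has 5 libraries. The gate for haematopoietic stem cells (HSCs) was CD45+ CD150+ CD48- EPCR+. The other populations were lineage-negative, Sca-1+, c-Kit+, Flt3-high and B220-. Without interleukin 7 receptor at the surface they were called lymphoid-primed multipotent progenitors (LMPPs). Cells with the receptor were split by Ly6D into Ly6D- all-lymphoid progenitors (ALPs) and Ly6D+ B-biased lymphoid progenitors (BLPs).

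Libraries held 2974305 to 9082610 gene counts and 12845 to 15745 detected genes, and 3 counts in a library correspond to 0.330 to 1.01 CPM, the counts of a gene per 1000000 gene counts of its library. Mbd3 lay between 0 and 3.24 CPM in the Mbd3del libraries and was at least 8.18 CPM in every control library. Summed RNA of 10 stem cell markers was 2300 to 3967 CPM in HSC libraries and at most 1511 CPM elsewhere. A list of 9 B lineage markers reached 5387 to 15000 CPM in BLPs against 606 to 1358 CPM in ALPs. A list of 8 LMPP markers summed to 3512 to 8296 CPM in LMPPs, 5852 to 14080 CPM in ALPs and 5784 to 10234 CPM in BLPs. A list of 6 ALP markers summed to 5057 to 10878 CPM in ALPs and 4244 to 9200 CPM in BLPs. The LMPP and ALP lists thus overlapped between their own population and BLPs. A T cell list of 8 genes summed to 26.6 to 47.4 CPM in control HSCs and 294 to 666 CPM in control BLPs, with Cd3e and Bcl11b at 0 in every library. A mature B and plasma cell list of 8 genes summed to 98.2 to 744 CPM over all libraries, with Ms4a1 at 0 throughout. Sex-linked RNA went against the labelled sex in control mice mouse10372 and mouse10381 and fitted it in the other 8 mice.

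All coordinates are on GRCm38. Ikzf1 (ENSMUSG00000018654.17) lies on the plus strand at chr11:11685003-11772926 and Ikzf3 (ENSMUSG00000018168.8) on the minus strand of the same chromosome at chr11:98464902-98546031. Ikzf2 (ENSMUSG00000025997.13) lies on the minus strand at chr1:69531214-69687245. Ikzf4 (ENSMUSG00000002578.15) lies on the minus strand at chr10:128630843-128645991, on the chromosome of Mbd3 and 48.2 Mb from it. Ikzf5 (ENSMUSG00000040167.16) lies on the minus strand at chr7:131388652-131410521. All are protein-coding, with exons that together span 5777 bases in Ikzf1, 11613 in Ikzf2, 8754 in Ikzf3, 5995 in Ikzf4 and 5721 in Ikzf5.

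Ikzf1, Ikzf2 and Ikzf5 had counts in all 40 libraries, with 105680, 15123 and 7390 counts in total. Ikzf4 had 1652 counts in 24 libraries, and Ikzf3 had 0 counts in all 40. Per kilobase of exon, Ikzf1 had the highest mean of the members in every population. Over both genotypes, HSCs had 32.5 ± 6.70 CPM per kilobase of Ikzf1, LMPPs 54.0 ± 12.7, ALPs 95.1 ± 21.2 and BLPs 98.0 ± 11.98 (SD, n = 10 libraries each). In HSCs, Ikzf2 followed with 12.4 ± 4.89 CPM per kilobase (SD, n = 10), and Ikzf5 at 5.19 ± 1.86 and Ikzf4 at 4.43 ± 3.34 differed by less than their spread. In BLPs the order after Ikzf1 was Ikzf5 at 6.22 ± 2.15, Ikzf2 at 1.19 ± 0.851 and Ikzf4 at 0.0467 ± 0.109 CPM per kilobase (SD, n = 10). The place of Ikzf5 depends on its length, since most of its exon bases overlap another gene, Pstk. If all its counts came from the 1069 bases that do not overlap, its level would be 27.8 ± 9.94 CPM per kilobase in HSCs and 33.3 ± 11.5 in BLPs (SD, n = 10). The HSC value would then be above Ikzf2 and apart from Ikzf1 by less than their spread. Which bases the counted reads came from was not tested.

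**Figure D1:**
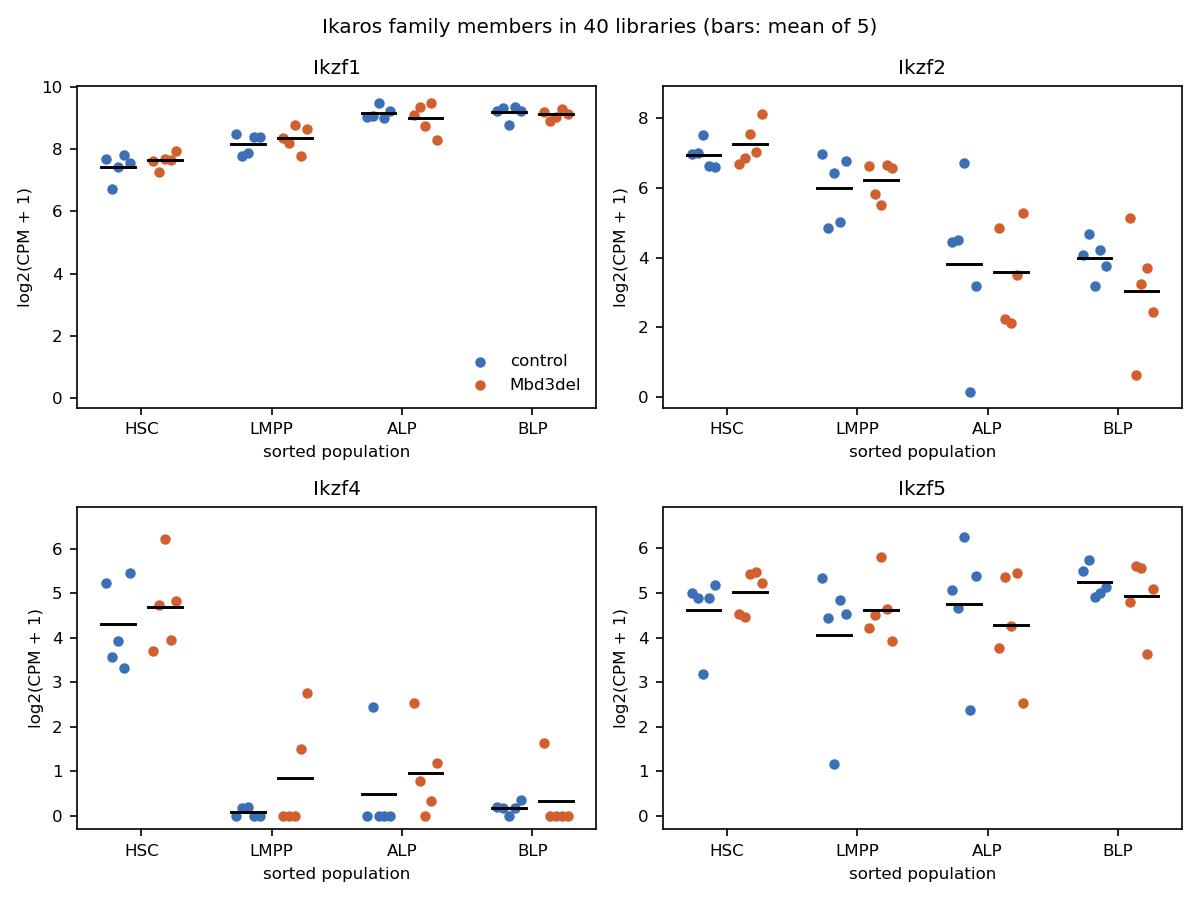
Level of 4 Ikaros family genes in each of 40 libraries, as log2(CPM + 1) on the vertical axis of each panel, by sorted population and genotype; each point is 1 library and each bar the mean of 5. Ikzf1 is higher in ALPs and BLPs than in HSCs, Ikzf2 runs the other way, Ikzf4 is lower outside HSCs with most points at or near 0, and the genotypes overlap in every panel; Ikzf3, at 0 throughout, is not drawn.

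Differences between populations were tested within each genotype with the quasi-likelihood test of edgeR, 5 libraries against 5, with p adjusted over all genes tested and a call at 0.05. From HSCs to BLPs, 3 members were called in control mice (Ikzf1 higher, Ikzf2 and Ikzf4 lower), where 15.7% of all genes tested were called, and the same 3 in Mbd3del mice against 19.3% of all genes. From HSCs to ALPs, 1 member was called in control mice (13.1% of all genes) and 3 in Mbd3del mice (12.6%). From HSCs to LMPPs, 2 were called in control mice (5.99%) and 1 in Mbd3del mice (6.74%). From LMPPs to BLPs, 2 were called in control mice (2.91%) and 2 in Mbd3del mice (7.68%). From LMPPs to ALPs no member was called by edgeR in control mice (0.938% of all genes) or Mbd3del mice (2.18%). At an unadjusted p under 0.05 that step had 1 member in control mice and 2 in Mbd3del mice, against 7.89% and 10.6% of all genes. DESeq2 called 1 and 2 members there, against 2.59% and 4.28% of all genes. From ALPs to BLPs no member was called by edgeR in control (0.266%) or Mbd3del mice (0.636%), and 0 members had an unadjusted p under 0.05 (4.32% and 7.75% of all genes) or were called by DESeq2 (0.614% and 1.91%).

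Ikzf1, which encodes the founding member of the family, was lowest in HSCs and highest in ALPs and BLPs. In control mice mouse10357, mouse10358, mouse10372, mouse10380 and mouse10381, in that order here and below, its level in HSCs was 202, 103, 169, 220.0 and 187 CPM. In LMPPs it was 352, 217, 233, 331 and 331 CPM. The HSC and LMPP ranges overlapped only at 217 to 220.0 CPM. In control ALPs it was 521, 529.9, 712, 502 and 589 CPM, and in control BLPs 589, 632, 437, 651 and 596 CPM. Every control ALP and BLP library was above every control HSC and LMPP library, while ALPs and BLPs overlapped. For separations between groups here and below, the share of all genes was counted only from HSCs to BLPs.

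In Mbd3del mice mouse10360, mouse10361, mouse10365, mouse10376 and mouse10384, again in fixed order, Ikzf1 was at 196, 154, 202, 199 and 244 CPM in HSCs. It was at 324, 291, 431, 216 and 396 CPM in LMPPs, where mouse10376 alone fell within the HSC range. The Mbd3del ALPs had 546, 647, 429, 706 and 314 CPM, the widest spread of Ikzf1 in any group, and the BLPs had 576, 479, 522, 627 and 555 CPM. As in control mice, every ALP and BLP library was above every HSC library, but 2 ALP libraries, of mice mouse10365 and mouse10384, lay within the LMPP range.

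From HSCs to BLPs, Ikzf1 rose by a log2 fold change of 1.81 ± 0.20 (SE, adjusted p = 2.79e-05, edgeR) in control mice, a 3.51-fold difference. In Mbd3del mice it rose by 1.69 ± 0.19 (SE, adjusted p = 1.57e-05, edgeR). All 5 BLP libraries were higher than all 5 HSC libraries in both genotypes, a separation upward found for 6.91% of genes with at least 5 CPM in the higher group in control mice and 7.82% in Mbd3del mice. The difference from HSCs to ALPs was of nearly the same size, 1.73 ± 0.24 in control (adjusted p = 0.000149) and 1.54 ± 0.22 in Mbd3del mice (adjusted p = 0.000277). From LMPPs to BLPs Ikzf1 rose by 1.01 ± 0.18 in control (adjusted p = 0.00639) and 0.90 ± 0.19 in Mbd3del mice (adjusted p = 0.00864). These 6 calls held under every alternative setting and with any 1 library left out.

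Single steps of Ikzf1 were less firmly placed. The step from HSCs to LMPPs measured 0.82 ± 0.22 in control (adjusted p = 0.0441, edgeR) and 0.80 ± 0.21 in Mbd3del mice (adjusted p = 0.0326). The control call was lost, at adjusted p = 0.0757 to 0.102, without the HSC library of mouse10357, mouse10358, mouse10372 or mouse10381 or the LMPP library of mouse10357, mouse10380 or mouse10381. It was also lost with RLE scaling, library totals alone or no expression filter (adjusted p = 0.0544, 0.0951 and 0.0598), and without mice mouse10372 and mouse10381 together (adjusted p = 0.268). The Mbd3del call was lost, at adjusted p = 0.0602 to 0.0763, without the HSC library of mouse10360, mouse10361 or mouse10365 or the LMPP library of mouse10360, mouse10365 or mouse10384, with library totals alone (adjusted p = 0.0526), and with the mouse as a replicate block (adjusted p = 0.0659). The step from LMPPs to ALPs was similar in size, 0.90 ± 0.22 in control (adjusted p = 0.0954) and 0.73 ± 0.23 in Mbd3del mice (adjusted p = 0.156), and was not called by edgeR. DESeq2 called it in both genotypes (adjusted p = 0.00357 and 0.0417), as did a fit of all 40 libraries together (adjusted p = 0.00411 and 0.0223). Between ALPs and BLPs the difference was 0.11 ± 0.20 in control and 0.15 ± 0.20 in Mbd3del mice (adjusted p = 0.998 and 0.944).

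Because Ikzf1 carries most of the family RNA, the 250 bases ahead of its RefSeq transcription starts are shown (GRCm38.p6, plus strand, 5' to 3'), with the GGGAA core that Ikaros proteins bind, or its complement TTCCC, in capitals. The first window is chr11:11685675-11685924 and the second is chr11:11689927-11690176. Both lie inside the GENCODE bounds of the gene given above, which begin further upstream.
Ikzf1 first window: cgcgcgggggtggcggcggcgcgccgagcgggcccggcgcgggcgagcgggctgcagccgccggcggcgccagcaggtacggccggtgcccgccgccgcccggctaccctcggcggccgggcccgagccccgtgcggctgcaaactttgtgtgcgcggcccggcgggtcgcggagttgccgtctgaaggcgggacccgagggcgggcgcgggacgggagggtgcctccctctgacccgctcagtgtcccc
Ikzf1 second window: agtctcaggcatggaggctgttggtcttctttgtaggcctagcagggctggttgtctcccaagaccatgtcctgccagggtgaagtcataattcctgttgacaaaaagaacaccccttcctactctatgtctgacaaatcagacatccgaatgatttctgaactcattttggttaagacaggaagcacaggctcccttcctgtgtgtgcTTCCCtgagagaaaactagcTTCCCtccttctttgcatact
The first window is 82% G and C and holds 44 CpG, more than 99.5% of the 32851 mouse windows of this length. It has 0 matches, on either strand, to the GGGAA core, with or without a T ahead of it. The E-box CANNTG is also missing from its letters, as are the ETS core GGAA, the motif TGTGGT bound by Runx factors and the motif GATAA bound by GATA factors. The second window is 47.6% G and C, holds 1 CpG and has 2 matches to GGGAA and 6 to GGAA, which includes those inside the longer motif, and 0 to the others. Of all windows, 56.2% hold GGGAA (21.6% with a T ahead of it), 93.4% the ETS core, 66.2% the E-box, 14.0% the Runx and 22.6% the GATA motif. Counts per gene do not tell the starts apart, so the share of either is not analysed here. Of the other members, Ikzf5 has a matching RefSeq window, with 18 CpG and 1 match to GGGAA.

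Ikzf2, the Helios gene, ran opposite to Ikzf1 and was highest in HSCs. In control HSCs it was at 125, 127, 184, 97.4 and 96.2 CPM, and in control LMPPs at 124, 28.0, 85.3, 31.8 and 107 CPM. The LMPPs of mice mouse10358 and mouse10380 were far below the HSC range and those of mice mouse10357 and mouse10381 within it. In control ALPs it was at 20.9, 21.7, 105, 0.110 and 8.11 CPM, so that mouse10372 reached the HSC range while the library of mouse10380 held a single count. In control BLPs all libraries were low, at 15.9, 24.4, 8.15, 17.8 and 12.5 CPM.

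In Mbd3del mice Ikzf2 was at 103, 115, 185, 129 and 278 CPM in HSCs and at 96.9, 55.9, 44.5, 101 and 93.9 CPM in LMPPs. All 5 LMPP libraries were below all 5 HSC libraries, by a narrow margin. It was at 27.7, 3.72, 3.34, 10.2 and 37.6 CPM in ALPs and at 34.3, 0.564, 8.49, 11.9 and 4.47 CPM in BLPs. Every ALP and BLP library was below every LMPP library, and ALPs and BLPs overlapped. Shares of all genes separated in these ways were not counted.

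From HSCs to BLPs, Ikzf2 fell by 2.93 ± 0.33 on the log2 scale in control mice (SE, adjusted p = 3.10e-05, edgeR) and fell by 3.49 ± 0.67 in Mbd3del mice (adjusted p = 0.00165). All 5 BLP libraries were lower than all 5 HSC libraries in both genotypes, as were those of 11.0% of genes in control and 12.5% in Mbd3del mice. Without the BLP library of mouse10360 the Mbd3del value was -4.34 (adjusted p = 0.000269), and with the mouse as a replicate block it was -4.14 (adjusted p = 0.00556). From HSCs to ALPs Ikzf2 fell by 3.07 ± 0.63 in Mbd3del mice (adjusted p = 0.00380), with -3.68 (adjusted p = 0.00137) without the ALP library of mouse10384. In control mice the same difference measured -2.11 ± 0.85 and was not called (adjusted p = 0.128).

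The control ALP library of mouse10372 bears on that last value. It had the fewest gene counts of the control ALPs, 3363182, and the most detected genes of all libraries, 15745. Its stem cell marker RNA was the highest of the control ALPs, 319 CPM against 55.7 to 192.5 CPM. Mbd3del ALPs of mouse10376 and mouse10384 had more, 361 and 370 CPM, with Ikzf2 at 10.2 and 37.6 CPM. The remaining Mbd3del ALPs had 168 to 191 CPM of these markers, with Ikzf2 at 3.34 to 27.7 CPM. The part of these properties in the Ikzf2 level of the control ALP library of mouse10372 was not tested. Without it the difference was -3.31 and was called (adjusted p = 0.0132). It was also called without the ALP library of mouse10380 (-1.79, adjusted p = 0.0476), with the mouse as a replicate block (-3.10, adjusted p = 0.0373), in the fit of all libraries together (adjusted p = 0.0449) and with the newer edgeR estimator (adjusted p = 0.00471).

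From LMPPs to BLPs, Ikzf2 fell by 2.26 ± 0.49 in control (adjusted p = 0.0222, edgeR) and by 2.55 ± 0.68 in Mbd3del mice (adjusted p = 0.0348). The control call was lost with the mouse as a replicate block (adjusted p = 0.166), in the fit of all libraries together (adjusted p = 0.0829), without mice mouse10372 and mouse10381 together (-1.57, adjusted p = 0.310), and, at adjusted p = 0.0538 to 0.0651, without the BLP library of mouse10357, mouse10372 or mouse10381 or the LMPP library of mouse10357 or mouse10381. The Mbd3del call was lost, at adjusted p = 0.0617 to 0.0788, without the BLP library of mouse10365, mouse10376 or mouse10384 or the LMPP library of mouse10360, mouse10376 or mouse10384. It moved to -3.40 (adjusted p = 0.00658) without the BLP library of mouse10360 and to -3.15 (adjusted p = 0.0160) with the mouse as a replicate block.

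The early steps of Ikzf2 did not pass the edgeR threshold. From HSCs to LMPPs the difference was -0.66 ± 0.41 in control (adjusted p = 0.476) and -0.95 ± 0.30 in Mbd3del mice (adjusted p = 0.0842). In Mbd3del mice DESeq2 and the newer edgeR estimator called it (adjusted p = 0.0319 and 0.0390). From LMPPs to ALPs it was -1.46 ± 0.91 in control (adjusted p = 0.766) and -2.13 ± 0.63 in Mbd3del mice (adjusted p = 0.125). The Mbd3del difference from LMPPs to ALPs was called by DESeq2 (adjusted p = 0.0104), by the newer estimator (adjusted p = 0.0151), with the mouse as a replicate block (-2.72, adjusted p = 0.0346) and without the ALP library of mouse10384 (-2.73, adjusted p = 0.0388). From ALPs to BLPs it was -0.80 ± 0.91 in control and -0.44 ± 0.91 in Mbd3del mice (adjusted p = 0.998 and 0.969).

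**Figure D2:**
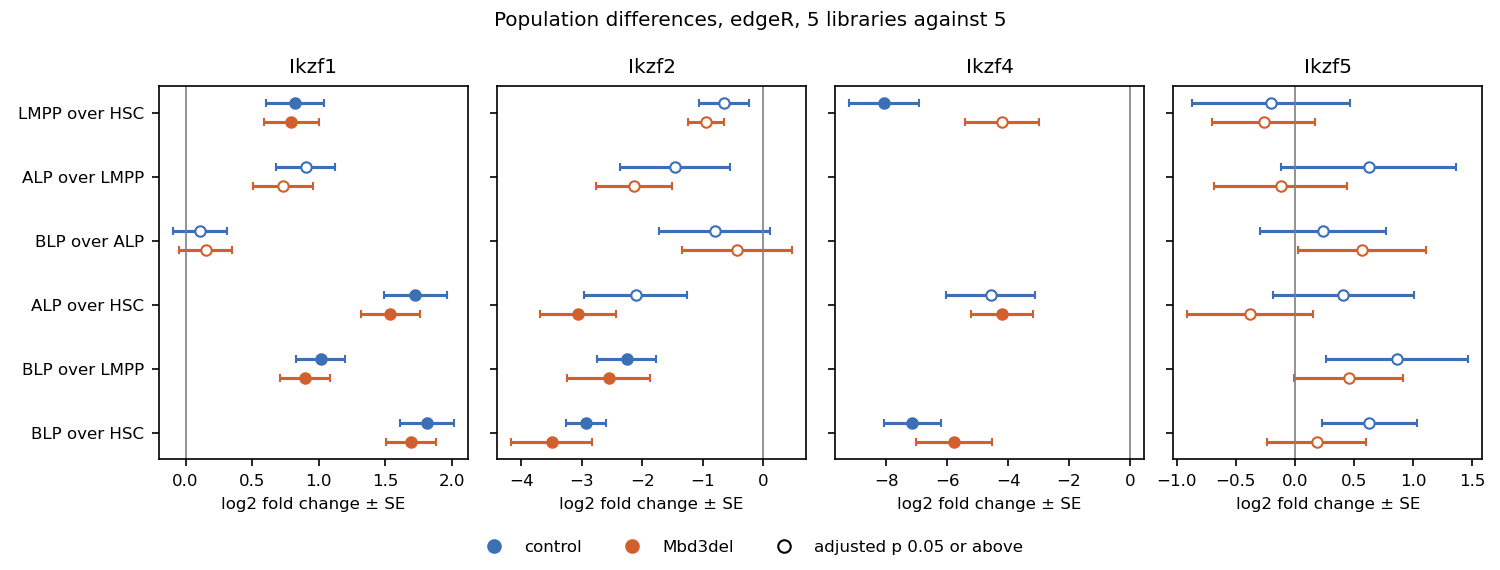
Log2 fold change between populations (horizontal axis, with its own scale in each panel) of 4 Ikaros family genes by edgeR, in control (blue) and Mbd3del (orange) mice; bars are standard errors and filled points have an adjusted p under 0.05. Ikzf1 lies to the right of 0 and Ikzf2 to the left in all 6 comparisons of both genotypes; Ikzf4 has values only against HSCs, and no Ikzf5 point is filled.

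Ikzf4, the Eos gene, was measured almost only in HSCs. In control HSCs it was at 36.5, 10.8, 14.3, 8.92 and 42.7 CPM, and in Mbd3del HSCs at 11.97, 25.6, 73.1, 14.3 and 27.4 CPM. All 10 HSC libraries had at least 46 counts. Of the 30 other libraries, 14 had a count of Ikzf4. In control LMPPs it was at 0, 0.125, 0.154, 0 and 0 CPM, in control ALPs at 0, 4.45, 0, 0 and 0 CPM, and in control BLPs at 0.153, 0.119, 0, 0.128 and 0.278 CPM. Of these control libraries the ALP library of mouse10358 held 34 counts and each of the others at most 1. In Mbd3del LMPPs it was at 0, 0, 0, 1.83 and 5.81 CPM, in ALPs at 4.74, 0.716, 0, 0.249 and 1.27 CPM, and in BLPs at 2.12, 0, 0, 0 and 0 CPM. No library outside HSCs, in either genotype, reached the lowest HSC library. Every BLP library was likewise below every HSC library for 11.0% of genes in control and 12.5% in Mbd3del mice, among genes with at least 5 CPM in the higher group. That share was not counted for LMPPs or ALPs.

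Summed over libraries, control HSCs held 659 counts of Ikzf4, against 2 in LMPPs, 34 in ALPs and 4 in BLPs. Scaled to library totals, the level in control HSCs was 429 times that in LMPPs (95% interval 118 to 3548), 24.6 times that in ALPs (17.4 to 35.8) and 196 times that in BLPs (76.2 to 722). Mbd3del HSCs held 847 counts, against 42 in LMPPs, 50 in ALPs and 14 in BLPs, which gave ratios of 24.6 (18.1 to 34.4), 23.3 (17.5 to 31.6) and 70.2 (41.6 to 129). These intervals treat reads as independent, which amplified reads are not, and leave out the spread between mice, so they are too narrow. All 34 counts of control ALPs came from mouse10358.

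From HSCs to BLPs, Ikzf4 fell by 7.15 ± 0.94 on the log2 scale in control (SE, adjusted p = 0.000107, edgeR) and fell by 5.79 ± 1.24 in Mbd3del mice (adjusted p = 0.00388). The Mbd3del value rests on the BLP library of mouse10360, without which all BLP counts were 0 and the fitted change was -10.2 (adjusted p = 0.000273), and was -7.60 with the mouse as a replicate block (adjusted p = 0.0102). From HSCs to LMPPs it fell by 8.08 ± 1.14 in control mice (adjusted p = 0.000767), with -8.67 (adjusted p = 0.000610) without the LMPP library of mouse10372. In Mbd3del mice the difference was -4.20 ± 1.21 and missed the threshold (adjusted p = 0.0526). It was called without the LMPP library of mouse10384 (-5.85, adjusted p = 0.0130), by DESeq2 (adjusted p = 0.00149), without the expression filter (adjusted p = 0.0340) and with the newer estimator (adjusted p = 0.000576).

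From HSCs to ALPs, Ikzf4 fell by 4.20 ± 1.03 in Mbd3del mice (adjusted p = 0.0135, edgeR). That call was lost without the HSC library of mouse10365 (-3.66, adjusted p = 0.0511) and in the fit of all libraries together (adjusted p = 0.0634). The value was -5.48 (adjusted p = 0.00346) without the ALP library of mouse10360 and -4.92 (adjusted p = 0.0434) with the mouse as a replicate block. The control difference of -4.58 ± 1.45 missed the threshold (adjusted p = 0.0509) and was called without the ALP library of mouse10358 (-10.0, adjusted p = 0.00103), where all ALP counts were 0. It was also called with the mouse as a replicate block (-7.81, adjusted p = 0.0230), by DESeq2 (adjusted p = 0.00216), with RLE scaling (adjusted p = 0.0480), without the expression filter (adjusted p = 0.0218), in the fit of all libraries together (adjusted p = 0.0385) and with the newer estimator (adjusted p = 0.000889). Among LMPPs, ALPs and BLPs Ikzf4 was under the expression filter, and two-sided exact permutation tests of log2(CPM + 1) in the 6 pairs gave p between 0.270 and 1.

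Ikzf5, the Pegasus gene, was low and showed no called change. Of its 5721 exon bases, 4652 lie over exons of Pstk, a kinase gene on the opposite strand with 12543 counts in all libraries. The libraries did not mark strand, so the counts of both genes are uncertain. In control mice Ikzf5 was at 31.1, 28.6, 8.08, 28.6 and 35.2 CPM in HSCs, 39.4, 20.7, 1.23, 27.6 and 22.1 CPM in LMPPs, 32.3, 24.5, 75.8, 4.18 and 40.8 CPM in ALPs and 44.0, 52.8, 29.2, 30.9 and 34.0 CPM in BLPs. The libraries of mouse10372 held the lowest value of control HSCs, LMPPs and BLPs and the highest of control ALPs. In Mbd3del mice it was at 22.2, 21.2, 41.9, 43.5 and 36.5 CPM in HSCs, 17.5, 21.6, 55.4, 23.8 and 14.1 CPM in LMPPs, 12.5, 39.9, 18.3, 43.0 and 4.81 CPM in ALPs and 26.7, 47.9, 45.9, 11.3 and 33.2 CPM in BLPs. All populations overlapped in both genotypes. The lowest adjusted p among the 12 population comparisons was 0.361, from HSCs to BLPs in control mice (0.63 ± 0.40, edgeR). Pstk over both genotypes went from 70.6 ± 25.8 CPM in HSCs to 35.7 ± 18.6 CPM in BLPs (SD, n = 10), while Ikzf5 was at 29.7 ± 10.6 CPM in HSCs and 35.6 ± 12.3 CPM in BLPs. In BLPs alone Pstk was apart between genotypes, at 38.5 to 68.7 CPM in control and 11.8 to 35.7 CPM in Mbd3del mice, where Ikzf5 overlapped. No test value is given for Pstk, and how many of all genes were apart between genotypes was not counted.

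Ikzf3, the Aiolos gene, had 0 counts among all 255334609 gene counts of the 40 libraries. A total of 3 counts, the limit that a count of 0 allows, corresponds to 0.0117 CPM. The floor covers counting error only. Counts of 0 in every library were found for 3906 of 21734 protein-coding rows (18.0%), but for 69 of 2830 (2.44%) of those with at least 8000 exon bases, the class of Ikzf3. Of 21 protein-coding genes within 200 kb of it, 3 also had 0 counts and 7 had at least 1000, among them Mien1 with 25641 and Ormdl3 with 2908. Ikzf3 is thus listed at 0 in every population of both genotypes, and no fold is given for it. The sources used here do not name the annotation release or strand setting of the counting, and the part of the counting in this 0 was not tested.

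Expressed as shares of the family's summed CPM per kilobase, Ikzf1 had a higher mean share in ALPs and BLPs than in HSCs. In control HSCs Ikzf1 made up 60.6% ± 7.70, Ikzf2 22.6% ± 8.26, Ikzf5 9.46% ± 4.13 and Ikzf4 7.32% ± 4.39 (SD, n = 5). In Mbd3del HSCs the shares were 59.2% ± 7.54, 22.8% ± 4.91, 9.74% ± 2.40 and 8.25% ± 5.53. The share of Ikzf1 was 83.5% ± 4.18 in control and 82.6% ± 4.90 in Mbd3del LMPPs, 92.4% ± 5.14 and 94.0% ± 1.09 in ALPs, and 92.6% ± 1.43 and 93.2% ± 2.64 in BLPs (SD, n = 5). The lowest Ikzf1 share of any ALP or BLP library was 84.7%, in the control ALPs of mouse10372, and the highest of any HSC library 71.9%. With the Ikzf5 length of 1069 bases, the mean share of Ikzf1 over both genotypes was 42.7% ± 7.42 in HSCs and 74.2% ± 7.34 in BLPs, and that of Ikzf5 was 35.4% ± 9.28 and 24.9% ± 7.57 (SD, n = 10). The lowest Ikzf1 share of any ALP library was then 60.7% and of any BLP library 64.9%, against at most 53.2% in HSCs. Of 16 two-sided exact permutation tests of a share between genotypes, 0 had an unadjusted p under 0.05 and all had an adjusted p of 1; the smallest p this design allows is 0.00794.

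**Figure D3:**
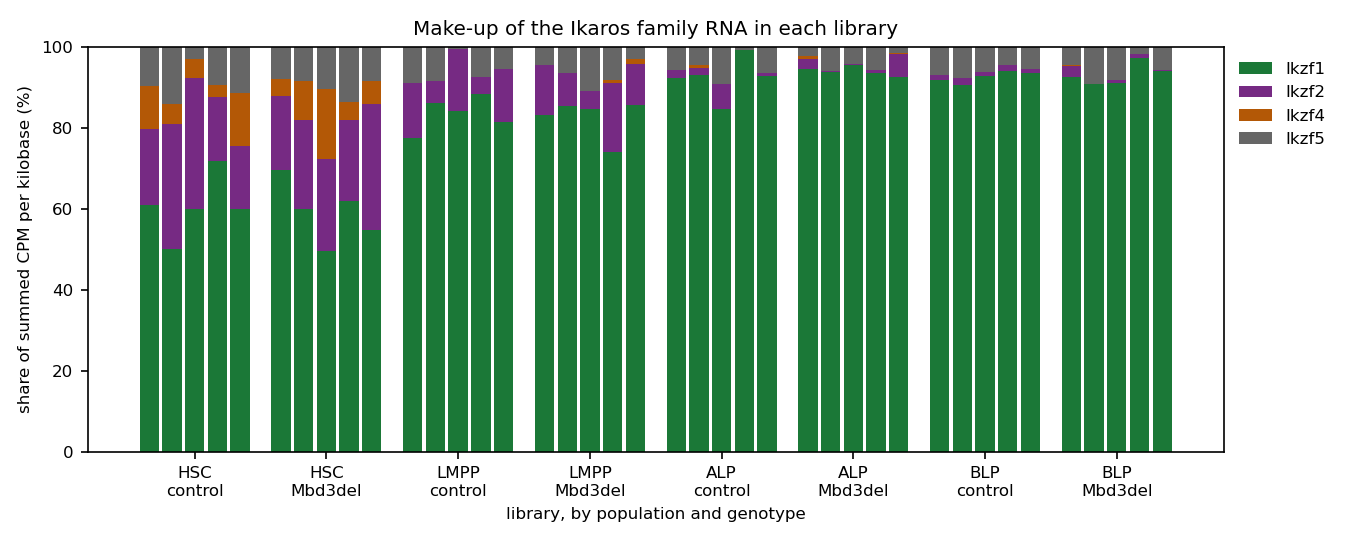
Share of each member in the summed CPM per kilobase of exon of the Ikaros family (vertical axis, percent); each bar is 1 library, grouped by population and genotype. Ikzf2 and Ikzf4 take a visible part of the bar in HSCs, and Ikzf1 fills 84.7% or more of each bar in ALPs and BLPs; Ikzf5 shares are uncertain because of its overlap with Pstk.

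The design asks what loss of Mbd3 changes within each population. No member was called between genotypes by edgeR in HSCs, LMPPs, ALPs or BLPs, where 0.0176%, 0.0183%, 0.0182% and 0.0743% of all genes tested were called. No member had an unadjusted p under 0.05 in any of the 4, where 4.11%, 5.19%, 2.30% and 8.31% of all genes did, and none was called by DESeq2 (0.123%, 0.330%, 0.127% and 1.47%). Every member's libraries overlapped between genotypes in every population. In ALPs edgeR did not call the deleted gene Mbd3 itself, at a mean of 61.7 CPM in control and 0.844 CPM in Mbd3del mice. A missing call there therefore does not show that a level is unchanged. In these pools, fewer cells of a type and less RNA per cell cannot be told apart.

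For Ikzf1 the genotype means lay close together. HSCs had 176 ± 45.0 CPM in control and 199 ± 32.1 CPM in Mbd3del mice, and LMPPs 293 ± 62.8 and 332 ± 85.4 CPM (SD, n = 5). ALPs had 571 ± 85.4 and 528 ± 159.7 CPM, and BLPs 581 ± 84.5 and 552 ± 55.7 CPM (SD, n = 5). In the order HSC, LMPP, ALP and BLP, the log2 fold changes of Mbd3del over control were 0.09 ± 0.21, 0.08 ± 0.21, -0.09 ± 0.23 and -0.05 ± 0.16 (SE, adjusted p = 0.977, 0.996, 0.9999 and 0.976). Ikzf1 thus had the smallest standard errors of the family. For Ikzf2 the log2 fold changes, in the same order of populations, were 0.24 ± 0.27, -0.05 ± 0.43, -0.72 ± 1.03 and -0.36 ± 0.76 (adjusted p = 0.955, 0.999, 0.9999 and 0.953). Its standard errors were larger than those of Ikzf1 in every population. For Ikzf5 the values were 0.25 ± 0.42, 0.20 ± 0.66, -0.53 ± 0.66 and -0.21 ± 0.38 (adjusted p = 0.958, 0.999, 0.9999 and 0.948).

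Ikzf4 measured 0.34 ± 0.56 between genotypes in HSCs (adjusted p = 0.958, edgeR), with means of 22.6 ± 15.8 CPM in control and 30.5 ± 24.8 CPM in Mbd3del mice (SD, n = 5). In LMPPs its 42 counts in Mbd3del mice came from mice mouse10376 and mouse10384, against 2 counts in control mice, and the two-sided exact permutation p of log2(CPM + 1) was 0.444. In ALPs and BLPs the exact p was 0.484 and 1. Stem cell marker RNA was higher in Mbd3del than in control LMPPs without overlap, at 1170 to 1511 against 562 to 1088 CPM, as was the summed RNA of 8 dendritic cell markers, at 455 to 849 against 202 to 389 CPM. In BLPs, 10 neutrophil and monocyte markers summed to 376 to 725 CPM in Mbd3del and 127 to 316 CPM in control mice, and the T cell list to 217 to 244 against 294 to 666 CPM. All other sums of the 12 marker lists overlapped between genotypes in every population. The sums named here were picked because they were apart, after every list was looked at in every population. No test value is given for them, and how many of all genes were apart between genotypes was not counted. Whether these sums reflect a shift in cell make-up was not tested. The stem cell list shares Ly6a and Kit with the list of LMPP markers, so its sum in LMPPs is not particular to stem cells. The part of these marker RNAs in the values of the members was not tested.

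**Figure D4:**
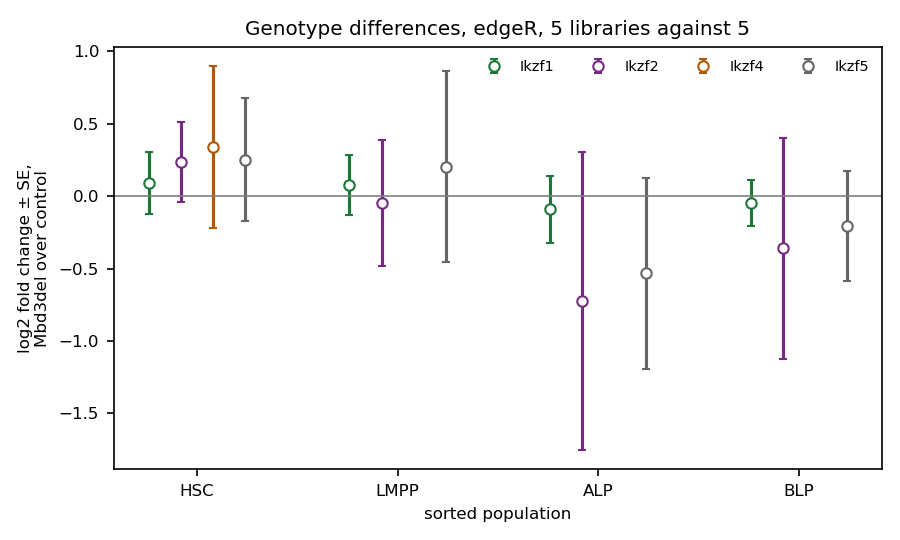
Log2 fold change of Mbd3del over control (vertical axis) for 4 Ikaros family genes in each sorted population by edgeR, with standard errors, from 5 libraries against 5. All points are open because no adjusted p was under 0.05; Ikzf4 has a value in HSCs only, and the bars of Ikzf1 are the shortest.

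Whether the change between populations itself differed between genotypes was tested as an interaction for HSCs to LMPPs, LMPPs to ALPs, ALPs to BLPs and HSCs to BLPs. No member was called by edgeR, which called 0.0%, 0.0%, 0.0% and 0.0472% of all genes tested. DESeq2 called no member either, against 0.167%, 0.0899%, 0.0825% and 0.362% of all genes. At an unadjusted p under 0.05 there was 1 member, Ikzf4 from HSCs to LMPPs, with 3.90 ± 1.63 (unadjusted p = 0.0257, adjusted p = 0.935), where 5.13% of all genes passed that unadjusted threshold. For Ikzf1 the 4 interaction values lay between -0.15 and 0.04, with standard errors of 0.26 to 0.30. For Ikzf2 they lay between -0.65 and 0.36, with standard errors of 0.53 to 1.36.

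Across the 40 libraries, which share mice, sorting gates and depth, Ikzf1 and Ikzf2 had a Pearson r of -0.68 on log2(CPM + 1) (Spearman rho -0.70). Once each library was set against the mean of its own population and genotype, r was 0.14, so the opposition of the pair lay between populations rather than among libraries of one kind. Ikzf2 and Ikzf4 had r = 0.62 across libraries and 0.33 within groups. Ikzf1 and Ikzf5 had r = 0.23 across libraries and 0.44 within groups.

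Among 9746 genes with a mean of at least 5 CPM, those most like each member over the 40 libraries were named by Pearson r. For Ikzf1 they were Cmah (r = 0.92), Mta3 (0.91), Sdc1 (0.91), Irf8 (0.90) and Arpp21 (0.90). Mta3 encodes a NuRD subunit, and its mean was lowest in HSCs (34.4 CPM), followed by LMPPs (121 CPM), ALPs (375 CPM) and BLPs (560.3 CPM). For Ikzf2 they were Hnmt (r = 0.83), Gng11 (0.82), Lmo2 (0.82), Tal1 (0.81) and Ifitm1 (0.81), of which Lmo2 and Tal1 encode regulators of stem cells. For Ikzf4 they were Tns2 (r = 0.93), Bgn (0.92), Tgm2 (0.91), Clec1a (0.90) and Clca3a1 (0.90), all with means of at most 1.03 CPM outside HSCs. For Ikzf5 they were Nisch (r = 0.77), Fntb (0.77), Sigirr (0.76), Lmtk2 (0.76) and Eya3 (0.73). Within groups r was 0.72 to 0.79 for the genes like Ikzf5 and 0.25 to 0.51 for those like Ikzf1.

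Other genes of the pathway were read as 4 lists. Of 24 genes linked to Ikaros binding in lymphoid cells, 23 were tested from HSCs to BLPs in control mice. Of these, 18 rose and 1, the cell cycle inhibitor gene Cdkn1b, fell, with a median log2 fold change of 5.32 against -0.01 for all genes tested, of which 7.34% rose and 8.33% fell. In Mbd3del mice 16 of 22 rose and 0 fell, with a median of 4.11 against -0.11 for all genes, of which 9.48% rose and 9.83% fell. The 6 largest control rises by fold were those of the recombinase genes Rag1 (218 against 0.451 CPM) and Rag2 (492 against 1.57 CPM), Il7r (1005 against 2.49 CPM), Dntt, which encodes terminal transferase (5256 against 19.8 CPM), the B lineage factor Ebf1 (228 against 1.22 CPM) and the adaptor Blnk (869 against 4.84 CPM). From HSCs to LMPPs, 6 of 17 rose in control mice (2.82% of all genes), among them Dntt, Rag2, Flt3 and Bcl6. Foxo1 was the 1 that fell (3.18% of all genes). Of the 24 genes, 11 are also held by a marker list of the sorted populations or other cells, and Flt3 and Il7r encode proteins used in the sort.

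Of 20 genes of NuRD and other chromatin partners, 19 were tested in control mice. From HSCs to BLPs, 4 rose there, against 7.34% of all genes: Mta3 (4.54 ± 0.34, adjusted p = 5.79e-07), Mbd3 (1.62 ± 0.40, adjusted p = 0.0128), Smarca4 (1.51 ± 0.29, adjusted p = 0.00217) and Rbbp4 (0.996 ± 0.289, adjusted p = 0.0301). In Mbd3del mice 2 of 18 rose, Mta3 (3.70 ± 0.25) and Rbbp4 (1.46 ± 0.24), a share near the 9.48% of all genes that rose. Of 16 transcription factors of blood cells, listed as possible partners, 15 were tested. From HSCs to BLPs 4 of them rose and 5 fell in control mice (7.34% and 8.33% of all genes). In Mbd3del mice 3 rose and 5 fell (9.48% and 9.83% of all genes). Those that fell in control mice were Lmo2, Tal1, Gata2, Gata3 and Gfi1b, regulators of stem cell or erythroid and megakaryocyte programmes, and Runx3 had the largest rise by fold there. The 5 genes of the cereblon ubiquitin ligase, through which drugs of the thalidomide class degrade Ikaros and Aiolos, had 0 calls by edgeR in all 20 comparisons, with 4 of 100 tests at an unadjusted p under 0.05 and 0 called by DESeq2. By comparison, edgeR called 0.0% to 19.3% of all genes and DESeq2 0.0825% to 23.8%. The share of all genes at an unadjusted p under 0.05 was 2.30% to 30.8%. Between genotypes, Mbd3 was the 1 called gene among all 4 lists, in HSCs, LMPPs and BLPs.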

How the data were processed

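The values used are raw read counts, deposited by the authors as a single table of genes by 40 libraries. Pools of sorted cells were made into libraries with Smart-seq2 and Nextera XT, per the labels' protocols, a method without molecular identifiers or strand. Reads were processed with STAR 2.5.2b and HTSeq 0.6.1p1 on GRCm38, per the submitters' processing notes. The sources used here name no annotation release or strand setting. Reads shared by genes that overlap on opposite strands therefore cannot be assigned. Per the labels HSC pools held 150 cells and other pools 100, where the series text has the reverse. Mbd3del LMPP titles name a floxed allele, against the genotype and description fields, which were followed.

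Of 128910 rows, 79325 repRegion rows (0.205% to 2.28% of a library's counts) stayed out of library sizes and tests. Of 49585 gene rows, 49326 matched GENCODE M21, used for symbols, exon lengths and coordinates; Ikzf4 carries another version number there. CPM is counts per 1000000 gene counts. Tests used edgeR 4.0.16 in R 4.3.3 (TMM, filterByExpr with minimum count 10 and total 15, robust dispersions, the quasi-likelihood estimator of earlier releases, Benjamini-Hochberg over all genes tested), each comparison on its own libraries, 20 in all, after the code was tested on simulated data. Members under the filter had two-sided exact permutation tests of log2(CPM + 1) over 252 arrangements, not adjusted. Alternatives were DESeq2 1.42.0, RLE or no scaling, no filter, a joint fit, labelled sex as a covariate, the mouse as a block and each library left out. Chosen after seeing the data were the newer estimator, leaving out control mice mouse10372 and mouse10381, and an Ikzf5 length without Pstk bases.

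Libraries of one mouse carry its number in all 4 populations, so the design pairs them; the mean correlation of same-mouse deviations was -0.0589 to 0.0678 over 12 pairs of populations. Libraries of a group come from separate mice. Promoter windows are from RefSeq (GRCm38.p6), of which 3 matched 2 members. The members, lists and tests were chosen with earlier results of these data known. List genes were named when called, at most 6 per list and comparison by fold with at least 5 CPM in the higher group, and Cdkn1b was named after its value was seen; likeness was ranked by Pearson r over 40 libraries, 5 genes per member.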

Additional observations from a re-analysis of the deposited data

Results flagged for a closer look

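Of 28 groups of 5 libraries tested, 6 held a library whose gap to its nearest neighbour was over 0.71 of the group's range. That cutoff flags about 1 in 20 groups of normally distributed values. Whether CPM follow such a distribution was not tested, so the 6 are not set against that rate. Ikzf2 in control ALPs was at 105 CPM in mouse10372 against 0.110 to 21.7 CPM in the others. In the same mouse, Ikzf1 in BLPs was at 437 CPM against 589 to 651 CPM, and Ikzf5 in HSCs was at 8.08 CPM against 28.6 to 35.2 CPM. The animal mouse10372 thus supplied 3 of the 6, for 3 genes in 3 populations, and is one of the mice whose sex-linked RNA went against the label. In Mbd3del mouse10365, Ikzf4 in HSCs was at 73.1 CPM against 11.97 to 27.4 CPM, and Ikzf5 in LMPPs was at 55.4 CPM against 14.1 to 23.8 CPM. Ikzf4 in Mbd3del ALPs was at 4.74 CPM in mouse10360 against 0 to 1.27 CPM.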

How the results depend on the processing

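No member was called between genotypes or in an interaction under any setting run, and the 3 calls from HSCs to BLPs held in both genotypes under all of them. No result reversed its direction while called. The number of members called from HSCs to LMPPs in control mice (2) was 1 with RLE scaling, library totals alone, no filter, or without mice mouse10372 and mouse10381, and 1 to 2 with 1 library left out. In Mbd3del mice (1) it was 3 with DESeq2 or the newer estimator, 2 without the filter, 0 with library totals alone or the mouse as replicate block, and 0 to 1 with 1 library left out. From LMPPs to ALPs (0) it was 1 with DESeq2 and the joint fit in control mice. In Mbd3del mice it was 2 with DESeq2, 1 with the joint fit, the newer estimator or the replicate block, and 0 to 1 with 1 library left out. From HSCs to ALPs in control mice (1) it was 2 with DESeq2, RLE scaling or no filter, 3 with the joint fit, the newer estimator or the replicate block, and 1 to 2 with 1 library left out. From LMPPs to BLPs in control mice (2) it was 1 with the joint fit, the replicate block or without mice mouse10372 and mouse10381, and 1 to 2 with 1 library left out; in Mbd3del mice (2) that range was 1 to 2. The replicate block changed no other call. Exact tests of Ikzf4 under the filter below 0.05 numbered 0, and 0 to 1 with 1 library left out (smallest exact permutation p = 0.0476). Over all genes, counts of calls also moved: between genotypes in BLPs from 8 to 1 to 158 over settings, and in HSCs from 2 to 0 to 14. Ikzf4 outside HSCs and Ikzf2 in ALPs and BLPs rest on few counts in part of the libraries, and small pools without molecular identifiers limit every value.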
